A study of Mus musculus with 6 samples.

Results

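The T cell receptor complex and its CD4 and CD8 coreceptors were examined through 9 genes, Cd8a, Cd8b1, Cd4, Cd3e, Cd3d, Cd3g, Cd247, Lck and Zap70, in the stroma of tumours grown in WT and Pdia4-/- mice. Members were the probe sets whose platform annotation gave one of these symbols as the only gene. This rule found 18 of the 45101 probe sets of the Affymetrix Mouse430_2 array and covered 8 of the 9 genes. Lck had no such probe set and is described separately. The WT group held 3 male B6 mice, and the KO group held 3 male B6 mice with the Pdia4-/- genotype. Pdia4 encodes an endoplasmic reticulum enzyme that forms and shuffles disulphide bonds of folding proteins. All 6 mice carried a tumour inoculated under the skin and were sampled after 4 weeks. The inoculum was LLC (Lewis lung carcinoma) in the growth protocol but GK1 in the design text, and which of them was used is unclear. The tissue was labelled as cancer stromata, 1 array was made per mouse, and the labels do not say how the Pdia4 allele was made or in which cells it is lost.

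T cells recognise peptides through a receptor made of variable chains that cannot signal on their own. Its signal passes through the CD3 gamma, delta and epsilon chains and the CD247 (zeta) chain, whose tyrosine motifs are phosphorylated by the kinase LCK and then bind the kinase ZAP70. CD4 and CD8 are coreceptors that carry LCK to the receptor. CD4 binds class II and CD8 class I molecules of the major histocompatibility complex, which marks helper and cytotoxic T cells respectively. These transcripts are used in tumour tissue as markers of infiltrating T cells.

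Signals are the array software's linear intensities, scaled by the authors to the same trimmed mean of 500 on every array, and each carries a call of detected (Present), borderline (Marginal) or not detected (Absent). Present calls numbered 21202 to 22185 per array. The Pearson correlation of log2 signals between arrays lay between 0.889 and 0.970. KO replicate 3 has a different batch number in its file header from the other 5 arrays. The ratio of the 3′ to the 5′ beta-actin probe sets, which grows as RNA is degraded or labelled short, was 4.26, 1.66 and 2.70 in WT replicates 1, 2 and 3 and 1.99, 1.51 and 1.52 in the KO replicates. Pdia4 itself (1416497_at) read 3942, 2766 and 4104 in WT and 2324, 1521 and 1402 in KO. All KO values were below all WT values, with a log2 difference of -1.06 (SE 0.28, limma adjusted p = 0.161). Which part of the transcript the deletion removes is not stated in the labels.

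Signals of Cd8a, Cd8b1, Cd3e, Cd3g and 1 of the Zap70 probe sets lay higher on each KO array than on each WT array, those of Cd3d and Cd247 overlapped, and Cd4 was not detected on any array. Cd8b1 averaged 252 ± 179 in WT and 1307 ± 277 in KO (SD, n = 3), and Cd3e averaged 274 ± 176 and 806 ± 140. Of the 18 probe sets, 12 from 7 genes were Present on at least 3 of the 6 arrays and entered the test. Of these, 0 passed limma's adjusted p of 0.05 (Benjamini-Hochberg over all 22063 tested probe sets), where 6 probe sets, or 0.0272%, passed in all. At an unadjusted p under 0.05, 9 of the 12 were higher and 0 lower in KO, against 9.99% higher and 10.2% lower over all tested probe sets. The groups did not overlap in 8 of the 12, each KO array lying above each WT array, which held for 13.5% of all tested probe sets. The median log2 difference was 1.49 over the 12 member probe sets and -0.05 over all tested probe sets. Of these 12, 3 passed the filter through KO arrays alone, having no Present call in WT, so the filter itself selected them for a higher KO signal. Among the 6 member probe sets Present on all 6 arrays, 4 had each KO array above each WT array, against 13.8% of all probe sets so detected, and 5 were higher in KO at an unadjusted p under 0.05, against 9.53%. In whole tissue, a lower signal in WT from fewer T cells and one from less of a transcript per cell cannot be told apart.

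**Figure D1:**
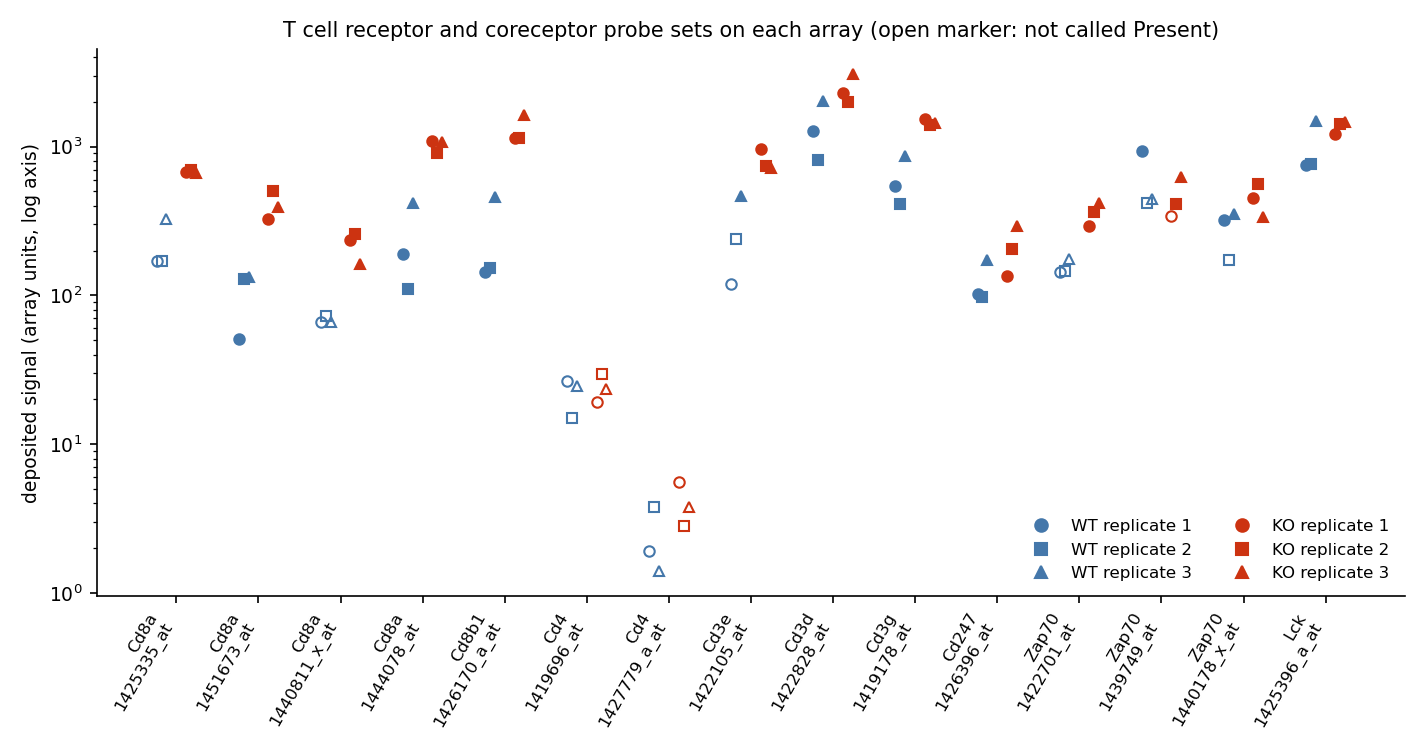
Signal of each tested member probe set, both Cd4 probe sets and the Lck probe set on each of the 6 arrays (linear intensity on a log axis, one point per array, WT and KO side by side). Open markers are signals not called Present. The KO arrays lie above the WT arrays for Cd8a, Cd8b1, Cd3e and Cd3g, whereas the groups overlap for Cd3d and Cd247.

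CD8 is a dimer of an alpha chain, from Cd8a, and a beta chain, from Cd8b1, and the alpha and beta pair is the form carried by cytotoxic T cells. The single Cd8b1 probe set (1426170_a_at) was Present on all arrays. Its signal was 144.3, 152.9 and 458.0 in WT and 1144, 1149 and 1627 in KO. WT replicate 3 was the highest WT array, and the lowest KO array still read above it. The log2 difference was 2.58 (SE 0.45, limma adjusted p = 0.13), a 5.96-fold difference. An exact two-sided permutation test over arrays gave p = 0.1, the smallest that 3 arrays against 3 allow.

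Cd8a was measured by 5 probe sets, of which 4 were tested. The brightest (1444078_at) read 189.2, 109.9 and 419.4 in WT and 1095, 904.3 and 1068 in KO, and was Present throughout. Its groups were separate, with a log2 difference of 2.31 (SE 0.45, limma adjusted p = 0.135). A second probe set Present on every array (1451673_at) read 51.0, 129.5 and 132.1 in WT and 326.4, 499.7 and 390.8 in KO, a log2 difference of 2.06 (SE 0.40, limma adjusted p = 0.135). The remaining tested Cd8a probe sets were Absent on all WT arrays and Present on all KO arrays, so their folds are lower bounds. For 1425335_at the signal was 169.6, 170.4 and 326.7 in WT and 670.4, 698.9 and 668.1 in KO, at least 3.21-fold higher in KO (limma adjusted p = 0.13). For 1440811_x_at it was 66.6, 72.4 and 65.9 in WT and 236.8, 256.3 and 161.9 in KO, at least 3.14-fold higher (limma adjusted p = 0.122). Probes of an x_at set can also match other transcripts, so its signal is less certain to be Cd8a alone. The fifth set (1440164_x_at) was Present only on KO replicate 1 and was not tested, with means of 130 ± 16.1 in WT and 212 ± 9.41 in KO. All 5 Cd8a probe sets, which are readings of the same gene, had each KO array above each WT array. For 1444078_at and 1451673_at, Present on every array, this compares with 13.8% of all probe sets so detected. The sets 1425335_at and 1440811_x_at passed the filter through KO arrays alone, which selects for a higher KO signal. For these and the untested 1440164_x_at, no share is set beside the result.

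Cd4, the coreceptor of helper T cells, was Absent on every array by both of its probe sets. The first (1419696_at) read 26.4, 15.0 and 24.4 in WT and 19.2, 29.8 and 23.6 in KO. The other (1427779_a_at) lay between 1.4 and 5.6 over the 6 arrays. Neither gave a level, so no fold is given, and a comparison of CD8 with CD4 has no measured CD4 level to rest on. Zbtb7b, the transcription factor that directs thymocytes to the CD4 lineage, read 574.0, 515.0 and 614.2 in WT and 415.4, 840.9 and 560.7 in KO, with overlapping groups. Foxp3, the regulator of regulatory T cells, read 50.8, 34.0 and 45.0 in WT and 21.2, 24.9 and 48.6 in KO, and its groups overlapped as well. Runx3, which acts in the CD8 lineage and in natural killer (NK) cells, averaged 0.82 higher in KO on the log2 scale (SE 0.35, limma adjusted p = 0.246), and the lowest KO array lay below the highest WT array.

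The 3 CD3 chains are encoded side by side, with no other protein-coding gene between Cd3g, Cd3d and Cd3e in the RefSeq annotation of GRCm38.p6. Cd8b1 and Cd8a neighbour each other as well, and Cd4 lies next to Lag3. The promoter windows of the CD3 genes and of Cd8a are shown because the CD3 genes share a locus and Cd8a, like Cd8b1, had among the largest log2 differences of the members. Each runs from 250 bases before to 50 bases after the RefSeq gene start in GRCm38.p6, 5′ to 3′ on the strand of the gene, and capitals mark the motif matches. Cd3e lies at chr9:45009562-45009861 (minus strand), Cd3d at chr9:44981536-44981835 (plus), Cd3g at chr9:44980382-44980681 (minus) and Cd8a at chr6:71373177-71373476 (plus).
Cd3e: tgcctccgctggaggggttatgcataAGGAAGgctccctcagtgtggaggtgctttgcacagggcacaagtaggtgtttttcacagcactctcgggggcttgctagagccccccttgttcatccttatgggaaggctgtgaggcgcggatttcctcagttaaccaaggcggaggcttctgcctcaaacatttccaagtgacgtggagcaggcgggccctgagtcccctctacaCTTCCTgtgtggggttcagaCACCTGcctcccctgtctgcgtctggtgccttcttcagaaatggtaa
Cd3d: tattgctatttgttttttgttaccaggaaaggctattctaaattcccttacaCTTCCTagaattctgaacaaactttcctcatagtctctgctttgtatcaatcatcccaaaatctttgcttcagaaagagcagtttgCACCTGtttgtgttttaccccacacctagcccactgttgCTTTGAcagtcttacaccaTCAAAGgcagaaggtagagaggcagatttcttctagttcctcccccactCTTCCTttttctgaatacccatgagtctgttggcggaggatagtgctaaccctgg
Cd3g: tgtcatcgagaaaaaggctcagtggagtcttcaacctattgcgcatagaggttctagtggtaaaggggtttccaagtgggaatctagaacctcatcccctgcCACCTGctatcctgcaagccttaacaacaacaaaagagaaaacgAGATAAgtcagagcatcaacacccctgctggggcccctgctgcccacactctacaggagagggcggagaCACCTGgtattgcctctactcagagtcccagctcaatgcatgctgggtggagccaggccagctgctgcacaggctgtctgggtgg
Cd8a: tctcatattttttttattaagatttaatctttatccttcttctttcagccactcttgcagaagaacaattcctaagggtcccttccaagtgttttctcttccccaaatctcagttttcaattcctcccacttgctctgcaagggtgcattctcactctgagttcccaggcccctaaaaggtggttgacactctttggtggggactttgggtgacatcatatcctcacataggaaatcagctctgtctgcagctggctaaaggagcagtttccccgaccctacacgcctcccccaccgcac
The 5 motifs, searched on both strands and chosen after the sequences had been seen, were AGGAAG for ETS factors, TGTGGT for RUNX, CTTTGA for TCF/LEF, CACCTG for E proteins and AGATAA for GATA. No pair of matches overlaps in these windows. They occur in 35.4%, 16.8%, 16%, 20.2% and 11.2% of 32851 RefSeq promoter windows of the same length, in that order. The Cd3e window held ETS matches starting 224 and 17 bases before the start and an E protein match just inside the gene. Cd3d held ETS matches at 198 and 5 bases, TCF/LEF matches at 73 and 54 bases and an E protein match at 112 bases before the start. Cd3g held E protein matches at 148 and 35 bases and a GATA match at 104 bases. The Cd8a window held none of the 5 sets of letters, which says only that they are not in this window. A match is a description of the letters, not a bound site.

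Cd3e (1422105_at), the chain shared by each CD3 dimer, read 119.6, 237.5 and 465.2 in WT and 967.8, 734.8 and 716.5 in KO. It was Present on 1 WT array and on all KO arrays. Each KO array was above each WT array, with a log2 difference of 1.76 (SE 0.46, limma adjusted p = 0.162). Cd3g (1419178_at), which pairs with Cd3e, read 538.8, 409.0 and 864.7 in WT and 1525, 1388 and 1431 in KO. The KO arrays lay close together (1448 ± 70.0) and above all WT arrays (604 ± 235, SD, n = 3), a 2.51-fold difference with limma adjusted p = 0.146. Cd3d (1422828_at), which also pairs with Cd3e, read 1271, 811.7 and 2012 in WT and 2293, 2003 and 3066 in KO. Here WT replicate 3 slightly exceeded KO replicate 2, so the groups overlapped, and the log2 difference was 0.92 (SE 0.36, limma adjusted p = 0.222), or 0.59 without WT replicate 2.

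Cd247, the zeta chain that carries most of the receptor's signalling motifs and is also used by NK cell receptors, had 1 tested probe set of 4. It (1426396_at) read 102.8, 97.0 and 173.0 in WT and 135.7, 203.8 and 293.2 in KO. The groups overlapped, with a log2 difference of 0.74 (SE 0.35, limma adjusted p = 0.279), which was 0.47 without KO replicate 3 and 0.41 with array weights. The other 3 Cd247 probe sets read between 6.4 and 90.4, had 0 Present calls in WT and were not tested. Of these, 1420716_at had each KO array above each WT array.

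**Figure D2:**
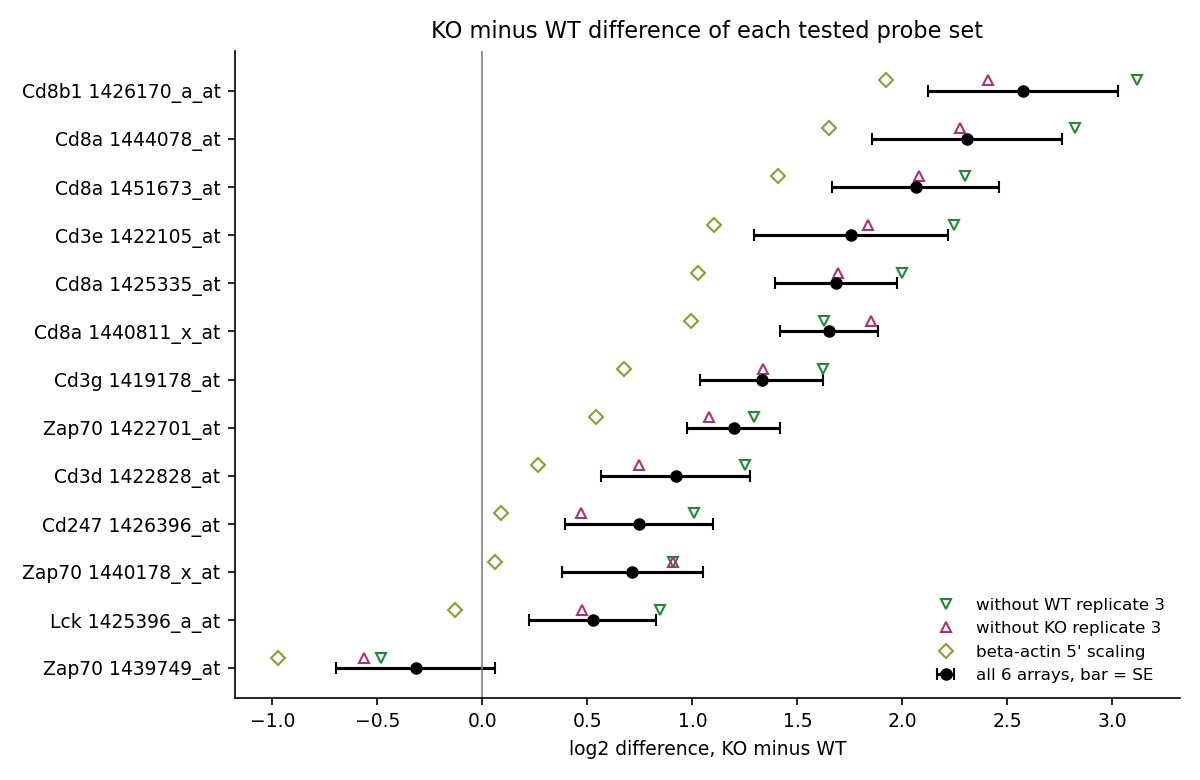
KO minus WT log2 difference of each tested member probe set and of the Lck probe set, with the SE from limma as the error bar (n = 3 arrays per group). The differences run from -0.32 for one Zap70 probe set to 2.58 for Cd8b1.

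The 3 tested Zap70 probe sets did not give the same direction. ZAP70 is the kinase that docks on the phosphorylated CD3 and CD247 chains, and NK cells use it as well. The probe set described as Zap70 in the array files (1422701_at) read 143.5, 146.2 and 176.5 in WT, Absent on each array, and 294.5, 362.2 and 417.5 in KO, Present on each. It was at least 2.29-fold higher in KO, with a log2 difference of 1.20 (SE 0.22, limma adjusted p = 0.131). The array files describe the others as expressed sequences of no named gene. Of these, 1440178_x_at read 320.1, 172.0 and 352.6 in WT and 454.1, 559.8 and 336.0 in KO, and 1439749_at read 932.3, 414.4 and 440.7 in WT and 341.1, 412.4 and 624.0 in KO. Both overlapped between the groups, with log2 differences of 0.71 (SE 0.34) and -0.32 (SE 0.38) and limma adjusted p values of 0.277 and 0.638. The brightest of the 3 was 1439749_at, and by the rule of the highest mean it stands for Zap70 in counts of genes, where Zap70 is therefore the 1 member gene not higher in KO. Without WT replicate 1, its log2 difference became 0.057, and over the other arrays left out in turn it ranged from -0.56 to -0.13. That of 1440178_x_at was 0.39 without WT replicate 2.

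Lck, the kinase carried by the coreceptors, was read from 1 probe set (1425396_a_at) that the array files describe as Lck and the platform annotation did not name. It read 746.6, 767.1 and 1482 in WT and 1218, 1423 and 1459 in KO, Present on all arrays. No KO array was above WT replicate 3, and the log2 difference was 0.52 (SE 0.30, limma adjusted p = 0.346), or 0.85 without WT replicate 3. A probe set that the array files describe as the CD8 beta chain but the annotation assigns to Mlec (1448569_at) was not a member. It read 740.6, 1533 and 1069 in WT and 558.8, 1078 and 354.2 in KO, with limma adjusted p = 0.316, and so ran against the Cd8b1 probe set.

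Differences within an array do not depend on that array's scaling factor. The mean log2 signal of Cd8a and Cd8b1 less that of Cd3d, Cd3e and Cd3g was -1.39, -1.73 and -1.09 in WT and -0.42, -0.32 and -0.15 in KO. The groups were separate, and the log2 difference of the CD8 genes exceeded that of the CD3 genes by 1.11 (exact permutation p = 0.1, the smallest possible). Cd3e was Present on 1 WT array only, so its WT level is partly background. With Cd3e left out of the CD3 mean, chosen after seeing the data, the difference was 1.32 and the groups stayed separate. Cd3e had the largest log2 difference of the CD3 genes (1.76), so leaving it out had to raise this value. The rise therefore does not test the part of that background. The CD8 and CD3 comparison itself was added once Cd4 had been seen to be undetected. The mean of the CD3 genes less Ptprc, the phosphatase CD45 carried by all leukocytes, was -5.82, -5.29 and -4.71 in WT and -4.31, -4.24 and -4.47 in KO. It was 0.93 higher in KO, again with separate groups and exact permutation p = 0.1. With Cd3e left out, also chosen after seeing the data, it was 0.72 higher and the groups stayed separate. Ptprc alone read 24468, 16822 and 24401 in WT and 29780, 24010 and 32409 in KO, with overlapping groups. Cd4 signals were Absent throughout, so the planned CD8 less CD4 value of 2.28 (exact permutation p = 0.1) is not read as a difference between coreceptors.

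**Figure D3:**
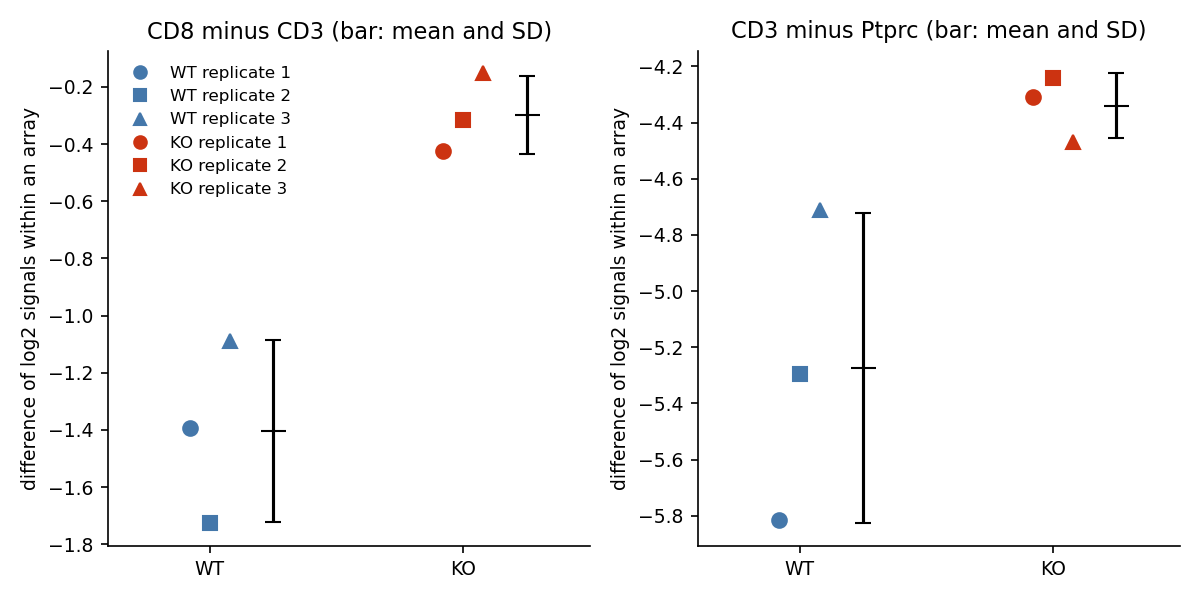
Differences of log2 signal within each array, CD8 genes less CD3 genes and CD3 genes less Ptprc, with one point per array and the group mean as a line. The KO arrays lie above the WT arrays in both, from -0.42 to -0.15 against -1.73 to -1.09 for CD8 less CD3.

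WT replicate 3 was the highest WT array for 10 of the 12 tested member probe sets. Averaged over the 7 tested member genes, the log2 deviation from the group mean was -0.18, -0.47 and 0.65 in WT replicates 1 to 3 and -0.11, -0.12 and 0.23 in the KO replicates. The 5 non-member genes with the most similar deviations over the 6 arrays were Ppp1r16b (Pearson r = 0.999), Tspan13 (0.997), Herc3 (0.996), Prr14 (0.996) and Cd5 (0.990), the last a T cell surface receptor that restrains receptor signalling. These correlations describe 6 arrays scaled to one target, among which WT replicate 3 deviated furthest. WT replicate 3 also carried a B cell signal. The summed signal of Ms4a1, Cd79a and Cd79b was 243.4, 198.6 and 7048 in WT and 306.8, 2173 and 401.2 in KO, so WT replicate 3 and KO replicate 2 stood apart. Without both of these arrays the log2 difference was 3.20 for Cd8b1, 2.91 for Cd8a (1444078_at), 2.30 for Cd3e, 1.65 for Cd3g and 1.38 for Cd3d. Each was larger than with all arrays. WT replicate 3 was the highest WT array for each of them, and leaving out the highest WT array raises a difference by itself. KO replicate 2 was the lowest KO array for Cd8a (1444078_at), Cd3d and Cd3g, and leaving it out raises their differences too. For Cd8a 1440811_x_at, WT replicate 3 was the lowest WT array and KO replicate 2 the highest KO array. Its value went from 1.65 to 1.5, and was 1.63 without WT replicate 3 alone and 1.52 without KO replicate 2 alone. Without KO replicate 3, the array of the other batch number, the log2 difference was 2.41 for Cd8b1, 2.27 for Cd8a (1444078_at) and 0.75 for Cd3d. WT replicate 1 had the highest 3′ to 5′ beta-actin ratio. Without it the log2 difference was 2.28 for Cd8b1, 2.25 for Cd8a (1444078_at) and 1.61 for Cd8a (1451673_at). For Cd3e, Cd3g and Cd3d it was then 1.26, 1.28 and 0.92, and the CD3 less Ptprc value was 0.66. Scaling each array to its 5′ beta-actin probe set, chosen after seeing the data, moved the median of all tested probe sets to -0.70, and the log2 difference was then 1.92 for Cd8b1, 1.65 for Cd8a (1444078_at), 1.10 for Cd3e, 0.67 for Cd3g, 0.54 for Zap70 (1422701_at), 0.27 for Cd3d, 0.089 for Cd247 and -0.13 for Lck.

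Genes that act with the receptor were counted from lists, 1 probe set per gene, against 8.88% of 11357 tested genes at an unadjusted p under 0.05 and higher in KO, and 11.8% lower. No gene of any of these lists passed the adjusted p of limma, as 4 genes (0.0352%) did in all. Of 17 tested signalling partners of the receptor, 14 were higher and 3 lower in KO, with 4 and 0 at that unadjusted threshold, and a median log2 difference of 0.45. Over all tested genes the median was -0.10. Lcp2, the adaptor SLP-76 that ZAP70 phosphorylates, read 2199, 1860 and 1700 in WT and 3663, 3526 and 4971 in KO (log2 difference 1.07, limma adjusted p = 0.142). Vav1, an exchange factor recruited by that adaptor, differed by 0.90 and Ptpn6, the phosphatase SHP-1, by 0.63. Sh2d2a, a T cell adaptor that binds LCK, was Absent on all WT arrays and Present on all KO arrays, at least 2.11-fold higher in KO. Sh2d2a is 1 of the 4 at the unadjusted threshold, but it passed the filter through KO arrays alone, which selects for a higher KO signal. Lat, the membrane scaffold that ZAP70 phosphorylates, read 225.0, 243.4 and 716.7 in WT and 413.7, 672.4 and 574.5 in KO, and its groups overlapped. Which cells of the tissue carried the transcripts of these partners was not tested.

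All 10 tested surface coreceptors and costimulators were higher in KO, 7 at the unadjusted threshold, with a median log2 difference of 0.91. The 10 include Ptprc, which all leukocytes carry, and which cells carried the other transcripts was not tested. Icos, a costimulator induced on activated T cells, read 288.1, 187.2 and 210.9 in WT and 470.9, 431.9 and 763.9 in KO (log2 difference 1.26, limma adjusted p = 0.148). Cd96, a receptor of T and NK cells, differed by 1.06, Tnfrsf9, the costimulator 4-1BB, by 1.04, and Thy1 by 0.74. Each of these 4 genes, named for their small p, had each KO array above each WT array, as did 13.5% of all tested probe sets. Of 12 tested regulators of the CD4 and CD8 lineages and of memory, 8 were higher and 4 lower in KO, with 4 and 0 at the unadjusted threshold and a median log2 difference of 0.45. Il7r, the interleukin-7 receptor chain that sustains naive and memory T cells, read 1513, 1164 and 2052 in WT and 3485, 2629 and 8618 in KO, where KO replicate 3 stood highest. Tox, a nuclear factor of developing and chronically stimulated CD8 T cells, read 4.3, 13.8 and 64.6 in WT and 64.2, 79.4 and 115.0 in KO, with overlapping groups. Neither T cell receptor chain gene with an annotated probe set, Tcra and Ptcra, was tested, and they read between 1.3 and 61.5.

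**Figure D4:**
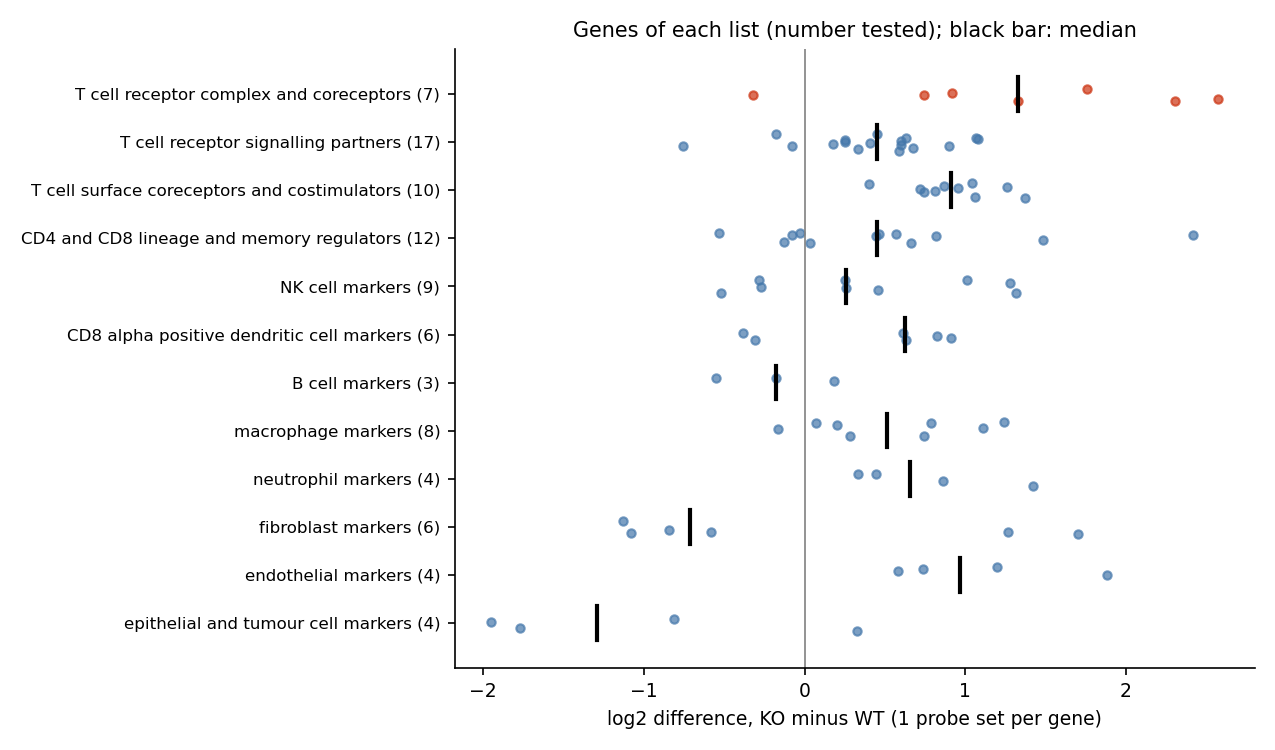
KO minus WT log2 differences of the tested genes of each list, one point per gene, with the list's median as a line. The median is 1.33 for the 7 member genes, 0.91 for surface coreceptors and costimulators and -1.29 for epithelial and tumour cell markers.

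Several members are also transcribed outside T cells, Cd8a in a class of dendritic cells and Cd247 and Zap70 in NK cells. Of 9 tested NK cell markers 6 were higher in KO, 3 at the unadjusted threshold, with summed signals of 54267 to 84870 in WT and 67863 to 109576 in KO. Most of that sum came from Fcer1g and Tyrobp, which myeloid cells transcribe too. Klrk1, the receptor NKG2D of NK and CD8 T cells, differed by 1.32 and Klrd1 by 1.01 on the log2 scale, whereas Ncr1, a defining NK cell receptor, read 65.9, 106.3 and 133.9 in WT and 41.0, 80.9 and 157.2 in KO and overlapped. Of 6 tested markers of CD8 alpha positive dendritic cells, 4 were higher in KO, 3 at the unadjusted threshold, with summed signals of 5287 to 7586 in WT and 9275 to 10112 in KO. Most of that sum came from Irf8, Wdfy4 and Cadm1. The 2 lower in KO were Itgae and Flt3, with log2 differences of -0.38 and -0.31 and overlapping groups. Batf3, a transcription factor that CD8 alpha positive dendritic cells need, read 236.2, 251.4 and 202.7 in WT and 486.2, 420.8 and 391.6 in KO. Xcr1, a chemokine receptor that defines these cells, was Absent on every array. The part of NK and dendritic cells in the Cd8a, Cd247 and Zap70 differences was not tested.

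Summed markers of epithelial and tumour cells, fibroblasts and endothelium did not overlap between the groups, and those of macrophages and neutrophils did. Of the 4 epithelial and tumour cell markers tested, 1 was higher and 3 lower in KO, with 0 and 2 at the unadjusted threshold, and they summed to 11422 to 15276 in WT and 2222 to 6486 in KO. Nearly all of that sum came from Krt8 and Krt18, while Krt7 and Cdh1 overlapped between the groups, Cdh1 being 0.33 higher in KO on the log2 scale. Krt8, a keratin of simple epithelia, read 7601, 6475 and 5591 in WT and 3307, 2451 and 850.0 in KO. Fibroblast markers (6 tested, 3 lower and 1 higher at the unadjusted threshold) summed to 61345 to 63643 in WT and 39125 to 52831 in KO. Most of that sum came from Col3a1. In all, 4 of the 6 were lower in KO and 2 higher. The 2 were Col1a1 and Col1a2, with log2 differences of 1.70 and 1.27 and each KO array above each WT array. Macrophage markers (8 tested, 7 higher, 3 at the unadjusted threshold) summed to 102400 to 141419 in WT and 113187 to 181651 in KO. Neutrophil markers summed to 68668 to 176560 in WT and 130525 to 176601 in KO, and endothelial markers to 453.6 to 596.7 in WT and 947.6 to 1226 in KO. All 4 tested markers of each were higher in KO, 2 and 3 of them at the unadjusted threshold, and 1 of each (Cxcr2 and Pecam1) had no Present call in WT. The summed signal of the 7 member genes was 2232 to 4833 in WT and 6795 to 8825 in KO. The part of these cell types in the member differences was not tested.

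**Figure D5:**
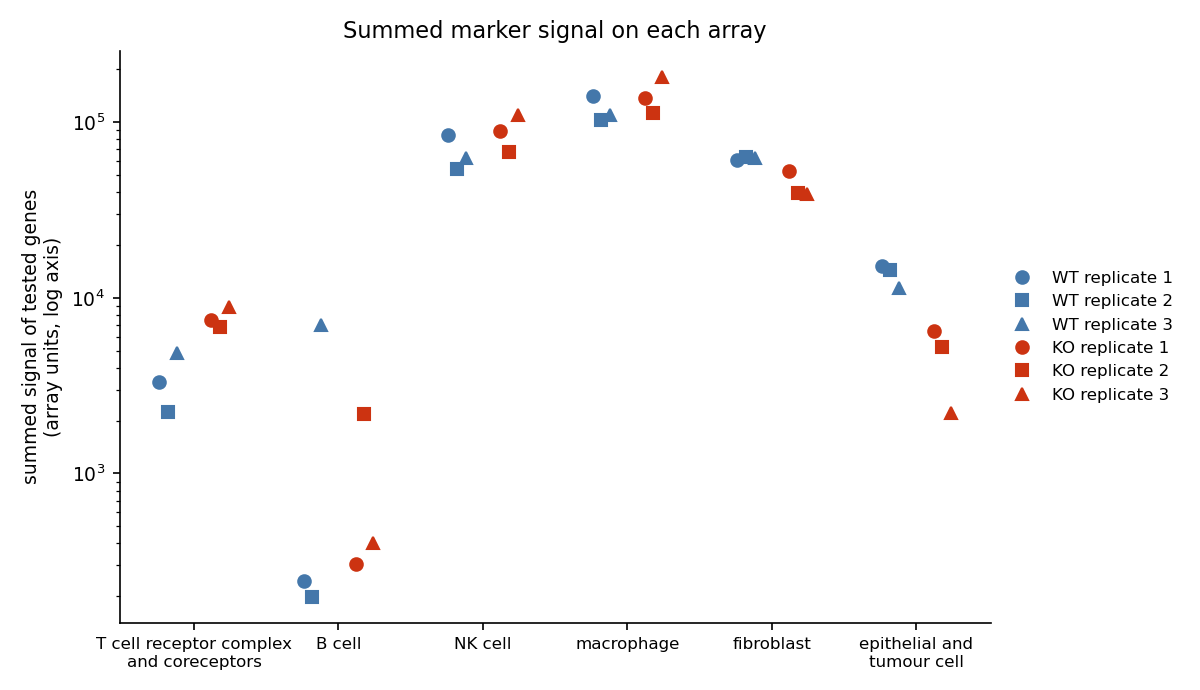
Summed signal of the tested members and of each cell type's markers on each array (log axis, one point per array). The members' sums are 2232 to 4833 in WT and 6795 to 8825 in KO, and the B cell sums stand apart in WT replicate 3 and KO replicate 2.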

How the data were processed

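Total RNA of the tumour stroma of 3 WT and 3 KO mice was isolated in Trizol and converted to biotinylated cRNA, per the labels' protocols. The arrays' signal intensities and detection calls are the authors' deposited values, and the authors' value table was equal to them in 270606 of 270606 cells. Per the expression report deposited for 1 array, signals were scaled to a target of 500, and calls used alpha1 0.05, alpha2 0.065 and tau 0.015. The version of that software is not stated in the labels or headers. The authors' deposited table of signed fold values, treated as a score, was used to look up members and, in the closing observations, to set its folds against the array signals.

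The log2 of the signals was tested as deposited, with no pseudocount. Tests covered the 22063 probe sets Present on at least 3 of 6 arrays, without the 64 controls. The annotation gave 34958 probe sets a single symbol, 932 several and 9211 none, and of these symbols 34754 matched GRCm38.p6 by Entrez ID with 0 changed. The genotypes were set against each other in limma 3.58.1 under R 4.3.3 (no covariates, two-sided, Benjamini-Hochberg over all tested probe sets), and single values with SciPy 1.17.1's exact permutation test over arrays. The procedure was tested on simulated data. A gene with several tested probe sets is represented by the one with the highest mean log2 signal. Where a probe set had no Present call in the lower group, its fold is a lower bound: each array of that group was set to its own signal for the probe set or, where higher, to the lowest signal called Present on that array.

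The members and gene lists were chosen with earlier results of these data known. Named genes are the members, Pdia4, up to 4 genes of smallest p per list, some defining markers and the 5 genes most like the members. Whether the mice shared litters or were processed apart is not in the labels, and p-values reflect the spread of these arrays alone, whose number limits the precision. Of the 7 genes with RefSeq promoter entries, 4 are printed. Alternatives were quantile normalization, cyclic loess, percentile scaling, other filters, a pseudocount of 16, array weights, the replicate block, a robust eBayes with a trend, and leaving out arrays.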

Additional observations from a re-analysis of the deposited data

How the results depend on the processing

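Over 215 recomputed log2 differences of the member and Lck probe sets, 213 kept their direction and 2 reversed. Other filters, the replicate block and the robust eBayes with a trend leave a log2 difference as it is. Values under these settings could not reverse, and the 213 include them. The Zap70 probe set 1439749_at ranged from -0.56 to 0.057 when 1 array was left out, the latter without WT replicate 1 (limma adjusted p = 0.939), and the Lck probe set to -0.13 under beta-actin 5′ scaling (limma adjusted p = 0.873). The count of member probe sets past the adjusted threshold was 0, with 1 under array weights (Cd8a 1440811_x_at, limma adjusted p = 0.0276) and 2 under beta-actin 5′ scaling (Cd8a 1444078_at, 0.0422, and Cd8b1, 0.0162), and 0 under each of the other alternatives. At an unadjusted p, 9 member probe sets became 5 when Present calls were required on all 6 arrays, where 6 remained tested, and 4 under beta-actin 5′ scaling. Elsewhere that count lay between 8 and 11. Beta-actin 5′ scaling and the removal of both arrays of high B cell signal or of Cd3e were chosen after seeing the data. The former moved the median of all probe sets to -0.70. The 6 probe sets called over the whole array (5 higher, 1 lower) became 0 under quantile normalization, without a filter, with Present calls on all 6 arrays, with the replicate block and without both arrays of high B cell signal. These settings had 2239, 2919, 1823, 2316 and 1790 probe sets higher and 2204, 1859, 2038, 2400 and 1560 on the lower side in KO, by limma with unadjusted p under 0.05. They became 1 (higher) under percentile scaling, 11 with the pseudocount, 19 with array weights, 27 with trend and robust, and 1135 (82 higher, 1053 lower) under beta-actin 5′ scaling. Leaving out 1 array gave 0 to 2. The causes were not tested. Same-numbered WT and KO arrays deviated with correlations of 0.16, 0.03 and -0.10, against -0.36 to 0.30 for the other pairs. With so few arrays, this cannot settle whether same-numbered arrays were handled together. The replicate block left 0 members called and 10 at the unadjusted threshold. Without 1 array the exact test cannot go below 0.2. The CD8 less CD3 value ranged from 0.92 to 1.32 and the CD3 less Ptprc value from 0.66 to 1.21 over the alternatives run.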

Other observations

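The authors' deposited table lists 1554 probe sets, 1488 with positive folds, each lower in KO by the array signals, and 66 with negative folds, each higher in KO. Of the 18 member probe sets 0 are in the authors' deposited table, and the Lck probe set is not either. The authors' deposited table does list 1448569_at, with a positive fold of 2.577. The array files describe that probe set as the CD8 beta chain and the annotation assigns it to Mlec. The smallest KO over WT log2 ratio of mean signals among the negative folds of the authors' deposited table was 1.92. At or above that ratio lay 145 tested probe sets, of which the authors' deposited table lists 66. The 145 include 3 member probe sets, Cd8b1 and the Cd8a probe sets 1444078_at and 1451673_at. The labels do not say by which rule the entries of the authors' deposited table were selected.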
